A study of Homo sapiens with 6 samples.

Results

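The unfolded protein response and the amino acid response were followed through 34 genes in 6 arrays of MCF10A cells, a non-tumorigenic human breast epithelial line, in a version carrying ErbB2, a receptor tyrosine kinase. The genes were chosen by name for their known roles, with earlier results of these data known, and 33 of them were measured among 18417 genes on the array. PDIA3 was not analysed because its probe sets also name a pseudogene. Where a gene had several probe sets, the one with the highest mean over the 6 arrays was taken. Both groups carried ErbB2 and were grown for 7 days in a reconstituted basement membrane, in medium with horse serum, insulin, hydrocortisone and cholera toxin. The groups differed in the label of the retinoblastoma protein RB, with 3 arrays of RB-proficient cells, titled miNS, and 3 arrays of RB-deficient cells, titled miRB. The labels do not spell out these tags, and they do not say how RB deficiency was made, whether a line is 1 clone or whether replicates were separate cultures, so a p-value here covers only the spread of these samples, and that spread may be technical. Cells and matrix were lysed together.

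When unfolded proteins build up in the endoplasmic reticulum (ER), the membrane sensors ATF6, IRE1 (gene ERN1) and PERK (gene EIF2AK3) are activated. ATF6 and the spliced form of XBP1 raise the transcription of chaperones and of the machinery that removes misfolded proteins from the ER, through promoter sequences called ER stress elements. PERK phosphorylates the translation factor eIF2, as does GCN2 when amino acids are short, and this favours translation of ATF4, which switches on genes of amino acid synthesis and uptake. These arrays read total transcript, so they show neither XBP1 splicing nor eIF2 phosphorylation nor translation of ATF4.

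Values are log2 intensities, with the arrays brought to one median and anything under 1 set to 1 (0 on the log2 scale). No member's chosen probe set reached that floor in any array. Differences are RB-deficient minus RB-proficient on this log2 scale, with n = 3 per group, and adjusted p-values come from limma over all 18417 genes. The arrays labelled RB-deficient 1 and 2 stood apart from the other arrays and from each other. Across genes, which are not independent replicates, they correlated with the RB-proficient arrays at Pearson's r of 0.69 to 0.75, and RB-deficient 3 did so at 0.83 to 0.88. RB-deficient 1 and 2 correlated with each other at 0.67, and with RB-deficient 3 at 0.71 and 0.75. Of all genes, 4.78% were at the floor in RB-deficient 1 and 1.68% in RB-deficient 2, against 0.35% to 0.71% in the other arrays. Results are therefore also given for the array labelled RB-deficient 3 alone, as its value minus the RB-proficient mean. RB1 differed by −1.95 (SE 0.75, adjusted p 0.301 in limma's test) with overlapping groups, so directions rest on the labels. Its values were 6.95, 5.71 and 7.59 in RB-proficient cells and 3.39, 5.03 and 5.98 in RB-deficient cells, so the array labelled RB-deficient 3, at −0.77, was the one inside the RB-proficient range, and RB1 does not bear out its label. ACTB (−1.92) and GAPDH (−1.23), used as reference genes, were lower in each of the 3 RB-deficient arrays. Of 9 epithelial markers 6 were measured, all above the floor, and their summed scaled intensity was 2572 to 5130 in RB-proficient and 1790 to 2570 in RB-deficient arrays. The same sums were 138 to 184 and 135 to 279 for 7 fibroblast markers, 457 to 574 and 294 to 345 for 5 endothelial markers, and 322 to 443 and 193 to 241 for 5 leukocyte markers. COL3A1 in RB-deficient 1 was the only marker value at the floor. Such sums weigh the brightest genes most, such as CDH5 (−0.86) and CD68 (−1.16). By gene, 5 of 6 epithelial, 3 of 7 fibroblast, 3 of 5 endothelial and 3 of 5 leukocyte markers were lower. EPCAM (0.24) and PTPRC (1.38) were higher without overlap. The part of these shifts in the results below was not tested.

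Most members were lower in the RB-deficient arrays, and none passed the test over all genes. Of 33 members 25 were lower, or 75.8%, beside 58.6% of all genes, and the median difference of the members was −0.51 beside −0.21 over all genes. For 14 members, or 42.4%, every RB-deficient value was below every RB-proficient value, beside 15.3% of all genes. For 1 member every RB-deficient value was above, beside 7.12% of all genes. By limma, 0 members passed an adjusted p of 0.05, as against 0.00543% of all genes lower and 0% higher. At an unadjusted p under 0.05, 9 members were lower and 0 higher, beside 10.9% and 2.85% of all genes. That count was 4 lower without RB-proficient 3, 5 lower without RB-deficient 2, and 11 lower and 2 higher without RB-deficient 3. In bulk RNA, fewer cells of a type and less RNA per cell cannot be told apart. With RB-deficient 3 as the only array of its group, 30 of 33 members were lower, or 90.9%, beside 57.0% of all genes. The gene nearest to the threshold was DDRGK1.

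**Figure D1:**
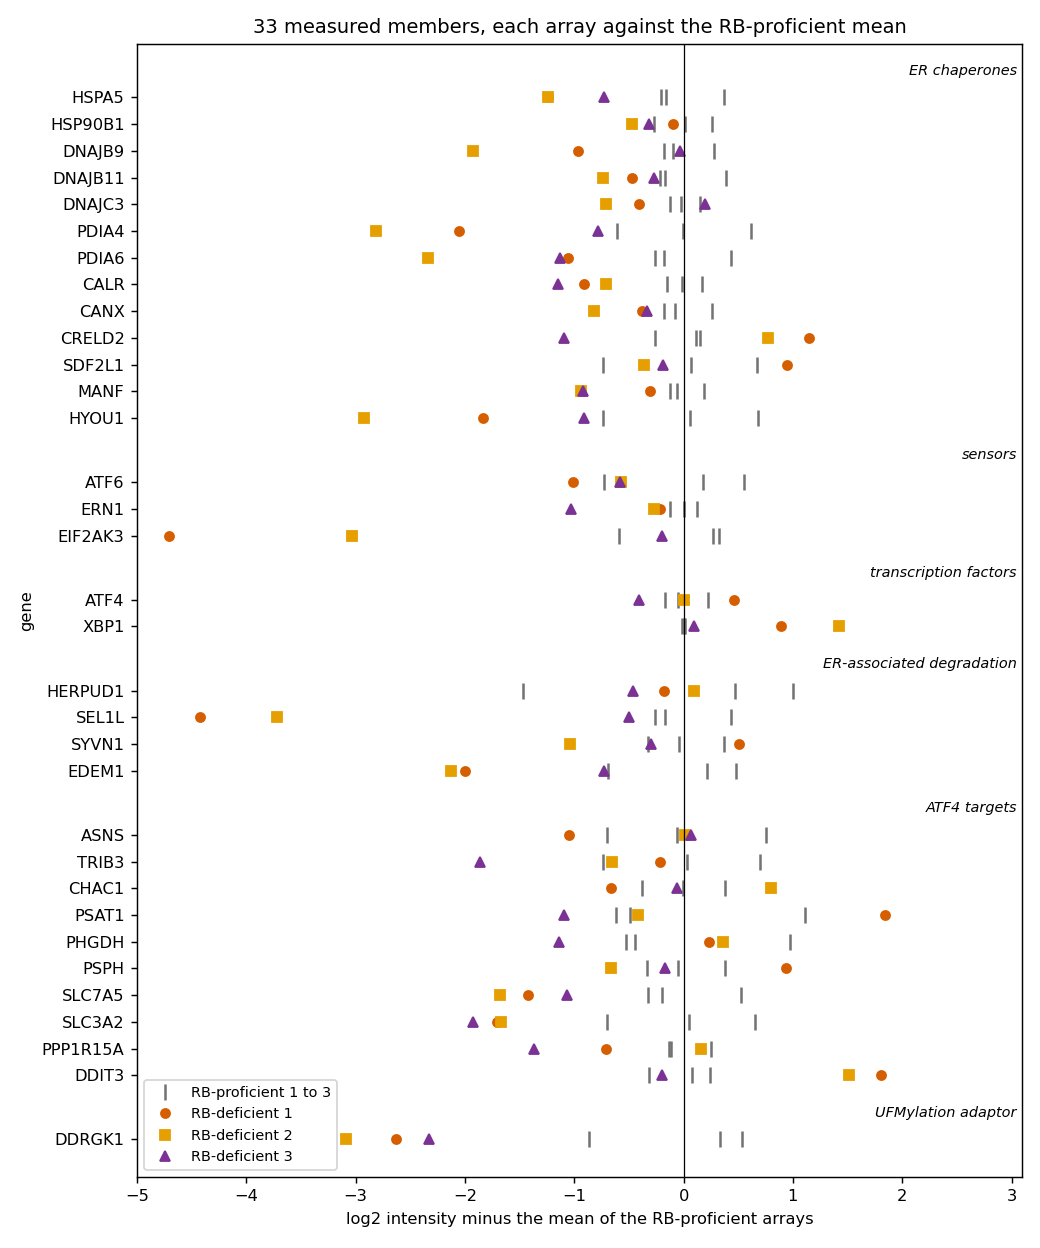
Log2 intensity in each array minus the mean of the 3 RB-proficient arrays (horizontal axis) for the 33 measured members (vertical axis), grouped by role. Grey ticks are RB-proficient arrays and coloured symbols are RB-deficient arrays 1 to 3. DDRGK1, SLC3A2, SLC7A5 and PDIA6 have all 3 coloured symbols left of −1, and EIF2AK3 and SEL1L have 2 far to the left and 1 close to 0.

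DDRGK1 encodes an ER membrane adaptor that recruits the ligase of UFM1, a ubiquitin-like modifier attached to ribosomes at the ER. Probe set 8064601 read 7.77, 8.97 and 9.17 in RB-proficient cells and 6.001, 5.55 and 6.30 in RB-deficient cells (log2 intensity). Every RB-deficient value lay more than 1 log2 unit below every RB-proficient value. The difference of −2.68 (SE 0.55, 95% interval −3.92 to −1.44) is 6.42-fold lower (adjusted p 0.203, limma). DDRGK1 passed in 2 of 17 alternative settings, with adjusted p 0.0232 when an offset of 16 replaced the floor and 0.0248 with eBayes with trend and robust. Of all genes, 0.928% passed as lower and 0.0271% as higher with that offset, and 0.331% and 0% with trend and robust. In RB-deficient 3 alone the DDRGK1 difference was −2.33, and over all 17 alternatives it ran from −3.12 to −2.33, with adjusted p from 0.0232 to 0.706.

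The other measured genes of UFM1 attachment and removal were lower by less. All 5 measured of 7 listed (UFM1, UFC1, UFSP1, UFSP2 and CDK5RAP3) were lower, with a median of −0.56, and 2 had groups without overlap. Of all genes, 58.6% were lower and 15.3% were lower without overlap. The ligase itself was not among these 5, and UFM1, UFSP1 and UFSP2 had overlapping groups. CDK5RAP3, a partner of the ligase, differed by −1.73 (SE 0.56), and by −0.78 in RB-deficient 3. UFC1, the conjugating enzyme, went from 9.44 ± 0.27 (SD) to 8.65 ± 0.18 (SD). UFSP2, the protease that removes UFM1, differed by −0.46 with overlapping groups. None of the 5 passed (smallest adjusted p 0.254).

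ER chaperones and folding enzymes were mostly lower in each of the 3 RB-deficient arrays. Of 13 measured, 11 were lower, 10 were below the RB-proficient mean in every RB-deficient array (27.2% of all genes were) and 8 had groups without overlap (15.3% of all genes were lower in this way). The median difference was −0.72, which is −0.51 relative to all genes, and the list median stood at −0.47, −0.82 and −0.73 in RB-deficient 1, 2 and 3. None passed over all genes (smallest adjusted p 0.269 in limma's test), and 3 were lower at an unadjusted p under 0.05, beside 10.9% of all genes. That count was 0 without RB-proficient 3 and 5 without RB-deficient 3.

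HYOU1, the large ER chaperone that serves as nucleotide exchange factor for BiP, had values of 5.78, 4.99 and 6.40 in RB-proficient cells and 3.89, 2.80 and 4.81 in RB-deficient cells. The groups did not overlap, although RB-deficient 3 lay within 0.2 of the lowest RB-proficient value. The difference was −1.89 (SE 0.65, 3.70-fold lower, adjusted p 0.273 in limma's test), and −0.91 in RB-deficient 3. With a floor of 16 the HYOU1 difference was −1.45, and with an offset of 16 it was −1.15. PDIA4, a protein disulfide isomerase, had values of 7.68, 7.08 and 8.30 against 5.63, 4.87 and 6.91. Here too RB-deficient 3 was the nearest to the RB-proficient range, with −0.78 against −1.88 for the group (SE 0.64, adjusted p 0.269 in limma's test). PDIA6, another disulfide isomerase, had values of 9.58, 9.50 and 10.19 against 8.70, 7.41 and 8.63. Its difference of −1.51 (SE 0.55, adjusted p 0.282) was nearly as large in RB-deficient 3, at −1.13.

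HSPA5 encodes BiP, the central Hsp70 chaperone of the ER and the usual marker of the unfolded protein response. Its values were 9.09, 9.13 and 9.67 in RB-proficient cells and 8.05, 8.05 and 8.57 in RB-deficient cells. All RB-deficient values were lower, and the difference was −1.07 (SE 0.48, 2.10-fold lower, 95% interval −2.15 to 0.01, adjusted p 0.367 in limma's test). The lectin chaperone CALR had values of 9.63, 9.30 and 9.44 against 8.55, 8.74 and 8.31. The CALR difference was −0.92 (SE 0.46), and RB-deficient 3 was the lowest array, at −1.15. CANX, the membrane-bound counterpart of calreticulin, had values of 11.12, 11.01 and 11.46 against 10.82, 10.37 and 10.86, a difference of −0.51 (SE 0.47) with no overlap.

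Of the remaining 7 chaperones, 5 were lower and 2 higher. MANF, a secreted ER stress protein, went from 10.30 ± 0.16 (SD) to 9.58 ± 0.36 (SD), and DNAJB11, an Hsp40 partner of BiP, from 9.08 ± 0.34 (SD) to 8.59 ± 0.23 (SD), both without overlap. DNAJB9, another Hsp40 protein, had RB-deficient values of 5.77, 4.82 and 6.71 against 6.56, 6.65 and 7.02. Only RB-deficient 3 lay within its RB-proficient range, and the difference was −0.98 (SE 0.58). HSP90B1, the ER Hsp90 GRP94, differed by −0.29 (95% interval −1.35 to 0.76) and DNAJC3, a BiP cochaperone also called p58IPK, by −0.31 (95% interval −1.40 to 0.79). Both overlapped, and DNAJC3 was 0.20 above the RB-proficient mean in RB-deficient 3. CRELD2, a secreted ER stress-inducible protein, had values of 5.81, 5.40 and 5.77 against 6.81, 6.43 and 4.56. RB-deficient 1 and 2 were above and RB-deficient 3 below every RB-proficient array, so the CRELD2 difference of 0.27 (SE 0.64) joins opposite values. SDF2L1, an ER protein that works beside BiP cochaperones, differed by 0.13 (SE 0.59), with RB-deficient 1 above and the other two within its RB-proficient range.

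Promoter sequences were read for what the chaperones share. RefSeq (GRCh38.p14) gave promoters for 31 of the 33 measured members, and the 250 bases before each start were searched on both strands. Only exact matches to the letters were counted, so an element that differs at a fixed base is neither counted nor marked. The ER stress element is CCAAT, 9 bases of any kind and CCACG. It was present in 25 of 27305 genes with a RefSeq promoter, or 0.0916%, and in 7 members. The variant ER stress element II is ATTGG, 1 base of any kind and CCACG. Of the same genes 18, or 0.0659%, held this variant, and 3 members did. Together 10 members held one of them, of which 8 were chaperones. The members were chosen as known unfolded protein response genes, so these counts describe them and are no test. The bases before the start of HSPA5 on chr9:125241344-125241593, minus strand, are shown because this is the best studied promoter of the response, with its match in capitals at −66 to −48.
HSPA5: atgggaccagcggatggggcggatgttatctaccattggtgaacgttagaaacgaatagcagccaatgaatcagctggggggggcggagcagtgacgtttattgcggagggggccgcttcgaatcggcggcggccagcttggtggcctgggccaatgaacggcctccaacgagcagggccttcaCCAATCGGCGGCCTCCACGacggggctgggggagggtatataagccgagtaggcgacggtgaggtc

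The other matches to the ER stress element are shown with 12 bases on each side, on the strand that reads CCAAT to CCACG, so that the shared ends and the free spacer between them can be compared. They lie on chr12:103930204-103930246 and chr12:103930309-103930351 for HSP90B1, chr2:10812841-10812883 for PDIA6, chr19:12938372-12938414 for CALR, chr5:179698766-179698808 for CANX, chr22:49918542-49918584 for CRELD2 and chr22:28800591-28800633 for XBP1. The first HSP90B1 match and that of CANX read on the plus strand, the others on the minus strand.
HSP90B1, first: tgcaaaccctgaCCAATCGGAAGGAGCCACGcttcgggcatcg
HSP90B1, second: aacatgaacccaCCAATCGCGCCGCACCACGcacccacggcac
PDIA6: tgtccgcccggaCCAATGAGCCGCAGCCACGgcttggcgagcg
CALR: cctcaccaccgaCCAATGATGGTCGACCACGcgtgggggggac
CANX: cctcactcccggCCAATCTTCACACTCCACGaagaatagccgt
CRELD2: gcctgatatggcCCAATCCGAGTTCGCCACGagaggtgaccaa
XBP1: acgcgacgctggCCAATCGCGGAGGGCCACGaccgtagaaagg

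HYOU1, SDF2L1 and HERPUD1 held the shorter ER stress element II, which is shown for the same comparison, with the match in capitals. The matches lie on chr11:119057368-119057402 and chr11:119057262-119057296 for HYOU1 and chr16:56932013-56932047 for HERPUD1, on the plus strand, and on chr22:21642102-21642136 for SDF2L1, on the minus strand.
HYOU1, first: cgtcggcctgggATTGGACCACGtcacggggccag
HYOU1, second: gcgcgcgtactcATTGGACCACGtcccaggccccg
SDF2L1: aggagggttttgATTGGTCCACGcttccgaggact
HERPUD1: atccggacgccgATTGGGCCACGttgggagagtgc

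Holders of these letters did not share a direction. HYOU1 (−1.89), PDIA6 (−1.51), HSPA5 (−1.07), CALR (−0.92), CANX (−0.51), HSP90B1 (−0.29) and HERPUD1 (−0.18) were lower, and XBP1 (0.80), CRELD2 (0.27) and SDF2L1 (0.13) were higher. PDIA4, at −1.88, was among the 5 chaperones with no exact match in this window. The UPR element, TGACGTGG, was present in 213 of 27305 genes, or 0.78%, and in HYOU1 alone among the members. There it overlaps the first ER stress element II on the opposite strand.

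**Figure D2:**
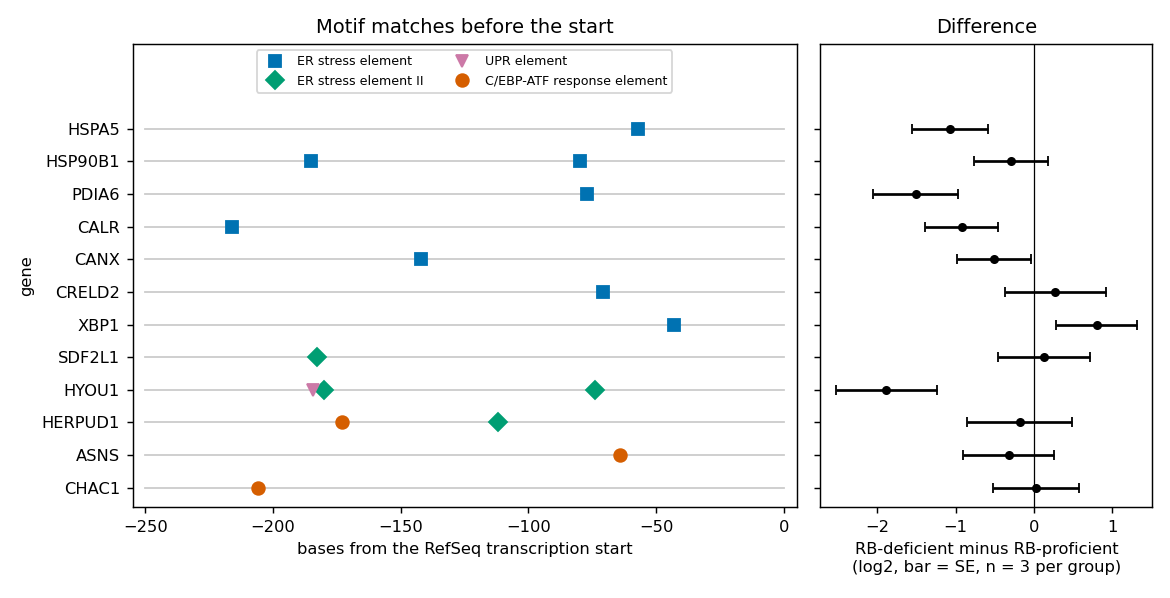
Left, positions of motif matches in the 250 bases before the RefSeq start (horizontal axis, bases from the start) for the 12 members with a match. Right, their log2 difference, RB-deficient minus RB-proficient, with bars for the SE (n = 3 per group), from −1.89 for HYOU1 to 0.80 for XBP1.

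Among the sensors, EIF2AK3 had the largest difference and was carried by 2 arrays. EIF2AK3, which encodes the eIF2 kinase PERK, had values of 7.26, 7.20 and 6.35 in RB-proficient cells and 2.23, 3.91 and 6.74 in RB-deficient cells. RB-deficient 1 and 2 were far below the RB-proficient range and RB-deficient 3 was inside it. The difference was −2.65 (SE 0.98, adjusted p 0.288 in limma's test), and −0.20 in RB-deficient 3. With a floor of 16 the EIF2AK3 difference was −2.03, and with an offset of 16 it was −1.70. ERN1, which encodes the sensor and XBP1-splicing nuclease IRE1, had values of 8.28, 8.15 and 8.39 against 8.06, 8.00 and 7.25. All RB-deficient values were lower, with a difference of −0.50 (SE 0.49, adjusted p 0.664 in limma's test), and RB-deficient 3 was the lowest. ATF6, the sensor that becomes a transcription factor after cleavage in the Golgi, went from 7.46 ± 0.66 (SD) to 6.73 ± 0.25 (SD) with overlap.

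Of the transcription factors downstream of the sensors, XBP1 had higher values and the direction of ATF4 was not settled. XBP1 was the only member with all RB-deficient values above all RB-proficient ones, at 7.81, 8.34 and 7.01 against 6.93, 6.92 and 6.90. RB-deficient 3 exceeded the highest RB-proficient array by under 0.1, and the RB-proficient SD was 0.01. The XBP1 difference was 0.80 (SE 0.52, 1.75-fold higher, adjusted p 0.515 in limma's test), and 0.09 in RB-deficient 3. ATF4, the transcription factor of the amino acid response, had values of 8.99, 8.87 and 9.26 against 9.50, 9.04 and 8.63. The groups overlapped and the ATF4 difference was 0.02 (SE 0.49, 95% interval −1.07 to 1.11). A dimmer ATF4 probe set, 8180337, gave 7.22, 7.60 and 7.80 against 6.20, 5.81 and 5.75, a difference of −1.62 (SE 0.48) without overlap, so the direction of ATF4 depends on the probe set.

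All 4 genes of ER-associated degradation, which exports misfolded proteins to the proteasome, had a group difference under 0, beside 58.6% of all genes. Their median was −0.95, beside −0.21 over all genes. Of the 4, 2 were below the RB-proficient mean in every RB-deficient array, beside 27.2% of all genes. SEL1L, the adaptor of the HRD1 ubiquitin ligase, had values of 6.65, 6.05 and 5.95 in RB-proficient cells and 1.79, 2.50 and 5.71 in RB-deficient cells. As for EIF2AK3, RB-deficient 1 and 2 were far below the rest. The SEL1L difference was −2.88 (SE 0.91, 7.37-fold lower, adjusted p 0.250 in limma's test), and −0.50 in RB-deficient 3. With a floor of 16 the SEL1L difference was −1.64, and with an offset of 16 it was −1.56. EDEM1, a lectin that extracts misfolded glycoproteins from folding, had values of 4.94, 6.11 and 5.85 against 3.63, 3.51 and 4.90. The groups just failed to overlap, with a difference of −1.62 (SE 0.58), and −0.73 in RB-deficient 3. With a floor of 16 the EDEM1 difference was −1.33, and with an offset of 16 it was −1.01. SYVN1, the HRD1 ligase itself, differed by −0.28 (SE 0.55) and HERPUD1, a stress-induced scaffold of that ligase, by −0.18 (SE 0.67), both with overlap. SYVN1 was 0.51 above the RB-proficient mean in RB-deficient 1, and HERPUD1 was 0.09 above it in RB-deficient 2. HERPUD1 varied most among the RB-proficient arrays, at 6.98, 4.51 and 6.45.

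**Figure D3:**
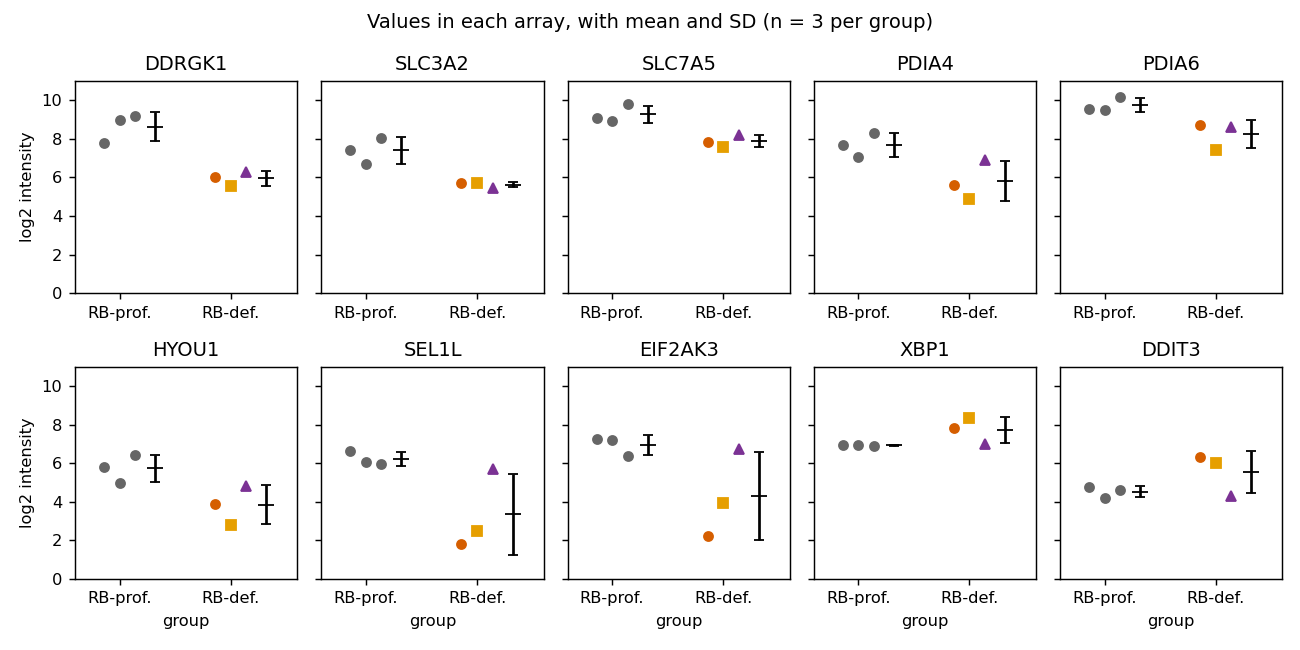
Log2 intensity (vertical axis) in each array of the RB-proficient and RB-deficient groups for 10 members, with the mean and SD beside each group (n = 3). Grey circles are RB-proficient arrays, and the orange circle, yellow square and purple triangle are RB-deficient 1, 2 and 3. For DDRGK1 and SLC3A2 all 3 RB-deficient symbols lie well below the grey circles, and for SEL1L and EIF2AK3 the triangle lies near the grey circles, at 5.71 and 6.74.

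ATF4 targets had no common direction, and their share of lower genes was near that of all genes. Of 10 measured, 6 were lower and 4 higher, or 60% lower beside 58.6% of all genes. With no scaling, with array weights and without RB-proficient 2, 8 of 10 were lower, beside 59.3% to 60.5% of all genes. The median difference was −0.25 beside −0.21 over all genes, and 2 had groups without overlap, beside 15.3% of all genes. The median was −0.48 with the mean of each gene's probe sets and, with 1 array left out, −0.54 without RB-proficient 2, −0.51 without RB-deficient 1, −0.47 without RB-deficient 2, −0.17 without RB-proficient 3 and −0.10 without RB-deficient 3. The 2 without overlap encode the chains of one transporter, the CD98 complex that carries large neutral amino acids. SLC3A2, the heavy chain, had values of 7.44, 6.70 and 8.05 in RB-proficient cells and 5.69, 5.73 and 5.47 in RB-deficient cells. The RB-deficient arrays were close to each other (SD 0.14) and all lower, with a difference of −1.77 (SE 0.52, 3.41-fold lower, adjusted p 0.228 in limma's test), and −1.93 in RB-deficient 3. SLC7A5, the light chain LAT1, had values of 9.07, 8.95 and 9.79 against 7.84, 7.58 and 8.20. Its difference was −1.39 (SE 0.50, 2.62-fold lower, adjusted p 0.281 in limma's test), and −1.07 in RB-deficient 3. Both had the same direction in each of 17 alternative settings, and their smallest adjusted p among them was 0.0579 for SLC3A2 and 0.0719 for SLC7A5, with the offset of 16.

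The enzymes of serine and asparagine synthesis overlapped between the groups. PHGDH, the first enzyme of serine synthesis, had values of 4.99, 5.07 and 6.48 against 5.74, 5.87 and 4.37, a difference of −0.18 (95% interval −1.60 to 1.23). PSAT1, the second enzyme, had values of 6.76, 6.64 and 8.37 against 9.10, 6.84 and 6.16, a difference of 0.11 (95% interval −1.72 to 1.94). RB-deficient 1 was the highest and RB-deficient 3 the lowest of all arrays for PSAT1. PSPH, the last enzyme, differed by 0.03 (95% interval −1.23 to 1.29), and a dimmer PSPH probe set, 8137464, gave −2.09 with RB-deficient 1 and 2 at the floor. ASNS, asparagine synthetase, had values of 6.30, 4.84 and 5.48 against 4.49, 5.55 and 5.61, a difference of −0.32 (95% interval −1.62 to 0.97).

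The stress effectors downstream of ATF4 also overlapped. DDIT3, the pro-apoptotic factor CHOP, had values of 4.75, 4.19 and 4.58 in RB-proficient cells and 6.31, 6.02 and 4.31 in RB-deficient cells. RB-deficient 1 and 2 were above every RB-proficient array and RB-deficient 3 was inside their range. The DDIT3 difference was 1.04 (SE 0.62, 2.06-fold higher, adjusted p 0.481 in limma's test), and −0.20 in RB-deficient 3. TRIB3, a pseudokinase induced by CHOP and ATF4, had values of 3.96, 4.72 and 5.39 against 4.48, 4.04 and 2.82, with RB-deficient 3 the lowest array. PPP1R15A, the GADD34 subunit that reverses eIF2 phosphorylation, went from 5.39 ± 0.22 (SD) to 4.75 ± 0.77 (SD). CHAC1, which degrades glutathione, differed by 0.02 (95% interval −1.21 to 1.25).

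The motif read by ATF4 with C/EBP partners, TGATGNAAN, was present in 1057 of 27305 genes, or 3.87%. It was present in 2 of the 9 ATF4 targets with a promoter, ASNS and CHAC1, and also in HERPUD1. None of the 9 held an exact match to either ER stress element. The matches are shown in capitals, on their own strand, for comparison with the chaperone matches above. They lie on chr7:97872456-97872488 for ASNS, chr15:40953249-40953281 for CHAC1 and chr16:56931953-56931985 for HERPUD1, all on the minus strand.
ASNS: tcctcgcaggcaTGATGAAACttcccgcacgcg
CHAC1: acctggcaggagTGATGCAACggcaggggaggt
HERPUD1: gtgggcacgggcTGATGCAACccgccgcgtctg

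Set side by side, the chaperone list was lower than the ATF4 target list over the 3 RB-deficient arrays, and the order depended on the array. The ATF4 target median minus the chaperone median was 0.47 over the group. It was 0.03 without RB-deficient 2, 0.24 without RB-proficient 2 and 0.24 with the mean of each gene's probe sets. Array by array it was 0.03, 0.62 and −0.35 in RB-deficient 1, 2 and 3, and −0.02, −0.18 and 0.17 in the RB-proficient arrays. In RB-deficient 3 the ATF4 target median was −1.08, below the chaperone median of −0.73, and 9 of 10 ATF4 targets and 12 of 13 chaperones were lower there. The all-gene median in that array was −0.14, and 57.0% of all genes were lower. The gap thus had both signs among the RB-deficient arrays, and no test of it was run. Without PPP1R15A and DDIT3 the ATF4 target median was also −0.25.

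**Figure D4:**
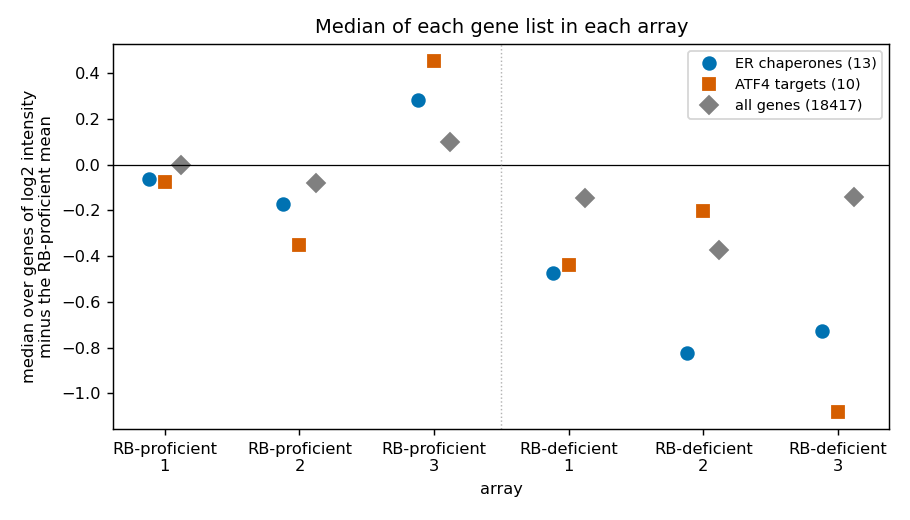
Median over the genes of a list of log2 intensity minus the RB-proficient mean (vertical axis) in each of the 6 arrays (horizontal axis), for 13 ER chaperones, 10 ATF4 targets and all 18417 genes. The chaperone median lies below the all-gene median in each RB-deficient array, and the ATF4 target median runs from −1.08 to −0.20.

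Other genes of these pathways, 95 measured of 103 listed, had a median of −0.59, and 69 were lower, or 72.6%, beside 58.6% of all genes. None passed over all genes (smallest adjusted p 0.203 in limma's test), and at an unadjusted p under 0.05, 20 were lower and 0 higher, beside 10.9% and 2.85% of all genes. Of 16 other genes of ER-associated degradation 15 were lower, with a median of −0.96. Among them VCP, the ATPase that pulls proteins out of the ER membrane, went from 8.51 ± 0.63 (SD) to 6.16 ± 1.00 (SD). Of 10 other eIF2 kinases and eIF2 regulators 9 were lower, with a median of −1.19. EIF2B1, a subunit of the exchange factor that reloads eIF2, went from 7.00 ± 0.47 (SD) to 4.30 ± 0.64 (SD), a difference of −2.70 (SE 0.54, adjusted p 0.203 in limma's test), and −1.96 in RB-deficient 3.

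Of 21 other ER folding genes 12 were lower, with a median of −0.23. PRKCSH and GANAB, the subunits of glucosidase II, which trims glycans for the calnexin cycle, differed by −1.83 (SE 0.47) and −1.69 (SE 0.49), both without overlap. Of 27 other ATF4 and amino acid genes 19 were lower, with a median of −0.25, close to that of all genes. SHMT2, the mitochondrial enzyme that converts serine to glycine, went from 6.71 ± 0.87 (SD) to 3.79 ± 0.91 (SD), a difference of −2.93 (SE 0.65, adjusted p 0.203 in limma's test), and −2.83 in RB-deficient 3. SLC6A9, a glycine transporter, differed by −2.20 (SE 0.61). Of 16 other signalling genes of the response 9 were lower and 7 higher, beside 58.6% of all genes lower. Without overlap, 6 were lower and 2 higher, beside 15.3% and 7.12% of all genes. RTCB, the ligase that joins spliced XBP1 RNA, differed by −1.60 (SE 0.55) and MBTPS1, the protease that first cuts ATF6, by −1.46 (SE 0.51). NFYC, a subunit of the factor that binds the CCAAT part of the ER stress element, differed by −1.92 (SE 0.51). NFYB, another subunit of it, differed by 0.55 and CREB3L1, an ER membrane transcription factor, by 0.89, and these 2, the ones higher without overlap, were chosen after their values were seen.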

How the data were processed

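The 6 arrays were grouped by the labels as 3 RB-proficient and 3 RB-deficient. The deposited values are linear intensities of 33297 probe sets, made by the authors with Affymetrix Expression Console 1.1, per the submitters' processing notes, from RNA amplified with WT-Ovation Pico, per the labels' protocols. How they were summarised, background corrected and normalized is not given in the sources used here.

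Each array was scaled to the mean of the 6 array medians, a floor of 1 was set and values were put on the log2 scale. The 19460 probe sets with 1 gene symbol gave 18417 genes. The test was limma's (version 3.58.1, R 4.3.3, with lmFit and eBayes, two-sided, Benjamini-Hochberg over all genes, threshold 0.05). It was first run on simulated data with equal spread in both groups. The median SD over all genes here was 0.40 in RB-proficient and 0.84 in RB-deficient arrays, so the simulated run does not vouch for these data. The number of arrays limits the precision, and detection calls were not used. Members and lists were chosen with earlier results of these data known. All measured members were named, and at most 3 genes of each other list, by smallest p, with exceptions marked in the text. Same-numbered arrays did not deviate together (correlations −0.12, 0.07 and −0.11), so no pairing was used.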

Additional observations from a re-analysis of the deposited data

How the results depend on the processing

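In 17 alternative settings, all in the plan, 521 of 561 member differences kept direction and side of the threshold, 38 reversed and 2 newly passed (DDRGK1, counted as 1 member called with the offset of 16 and 1 with trend and robust). Of all genes, 61 passed with the floor of 16, 176 with the offset, 61 with trend and robust, and 0 with quantile normalization, with the dimmest 25% left out, without RB-deficient 1 and 2 (where the lone array is assumed to vary like the others) and with any 1 array left out (0 to 0). The replicate block gave 1 gene and 0 members and changed no member's call. With 1 array left out the chaperone median ran from −0.93 to −0.50, the ATF4 target median from −0.54 to −0.10 and their gap from 0.03 to 0.52, and without RB-deficient 1 and 2 the ATF4 target median was −1.08 and its gap to the chaperones −0.35. The all-gene median was −0.09 after quantile normalization and −0.08 after centring, and the share of higher genes among those with an unadjusted p under 0.05 was 32.5% with centring, against 20.8%.

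Reversals fell on 12 members. Without RB-deficient 1 and 2, DNAJC3 was 0.20, CRELD2 −1.10, SDF2L1 −0.19, ATF4 −0.41, ASNS 0.068, CHAC1 −0.063, PSAT1 −1.09, PSPH −0.17 and DDIT3 −0.20. With array weights, CRELD2 was −0.12, ATF4 −0.087, PSAT1 −0.14 and PSPH −0.013. Without scaling, ATF4 was −0.026, CHAC1 −0.023 and PSPH −0.014. With the mean of probe sets, ATF4 was −0.80 and PSPH −1.03. With 1 array left out, ranges were −0.16 to 0.96 for CRELD2, −0.28 to 0.47 for SDF2L1, −0.20 to 0.23 for ATF4, −0.92 to 0.32 for HERPUD1, −0.67 to 0.11 for SYVN1, −0.68 to 0.054 for ASNS, −0.36 to 0.37 for CHAC1, −0.75 to 0.71 for PSAT1, −0.45 to 0.30 for PHGDH and −0.42 to 0.38 for PSPH. Beyond the settings' own construction, the cause was not tested.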

Other observations

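Some members split the RB-deficient arrays, a pattern chosen after the values were seen. CRELD2, ATF4, PHGDH and DDIT3 lay above the RB-proficient mean in RB-deficient 1 and 2 and below it in RB-deficient 3, which is 4 of 33 members, or 12.1%, beside 9.47% of all genes. HSPA5, PDIA4, HYOU1, EIF2AK3, SEL1L, EDEM1 and DDIT3 were more than 1 log2 unit from the RB-proficient mean in RB-deficient 1 and 2 and less than that in RB-deficient 3, which is 21.2% of members beside 15.9% of all genes. DDRGK1, SLC3A2, SLC7A5 and PDIA6 were more than 1 log2 unit lower in all 3 arrays. The differences in RB-deficient 1, 2 and 3 were −2.63, −3.09 and −2.33 for DDRGK1 and −1.71, −1.67 and −1.93 for SLC3A2. They were −1.42, −1.68 and −1.07 for SLC7A5 and −1.06, −2.34 and −1.13 for PDIA6. The share of all genes with this pattern was not counted, and ACTB also had it (−1.40, −1.92 and −2.43). By the group difference, 10 of 33 members and 3967 of 18417 genes were more than 1 log2 unit lower.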
